A study of Mus musculus with 2 samples.

Results

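The forkhead genes encode transcription factors that share the forkhead (winged-helix) DNA-binding domain. They were followed in the midbrain of mouse embryos at embryonic day 10.5. A list of 41 forkhead gene symbols was taken, and all 41 were found among the 43346 genes of the tables. RNA sequencing, called total RNA-seq in the labels, was done on tissue of the B6NCrl strain. The single group holds 2 libraries, and each was made from 10 ng of RNA of a pool of male and female embryos. Replicate 1 came from 69 embryos and replicate 2 from 51 embryos. No treatment or mutant allele is given in the labels, so the comparisons are between genes within a library and between the libraries. A difference between the pools carries no information on single embryos. In such bulk tissue, fewer cells of a type and less RNA per cell cannot be told apart.

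The forkhead domain folds into helices with flanking wings, and one of them, the recognition helix, lies in the major groove of the DNA. FoxA proteins open closed chromatin and pattern the ventral midline of the neural tube, FoxM1 drives genes of mitosis, and FoxP proteins act mainly as repressors in developing neurons and other tissues. FoxO proteins are kept out of the nucleus by insulin signalling, while FoxC and FoxF proteins act largely in mesenchyme and vessel walls and Foxj1 switches on motile cilia.

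Gene rows summed to 45531621 expected counts in replicate 1 and to 50477634 in replicate 2. Of 10 neuroepithelial and midbrain marker genes 9 reached 1 TPM (a level corrected for gene length and library size) in both libraries, and they summed to 2865 and 2357 TPM. Vim (1047 and 958 TPM) and Hes5 (698 and 585 TPM) were the highest, and En2, a midbrain and hindbrain gene, was the lowest at 0.92 TPM in replicate 1 and 0.71 TPM in replicate 2. Other cells were present: the 9 neuronal genes, from Tubb3 (562 and 364 TPM) and Gap43 (171 and 111 TPM) to Elavl3 (13.00 and 8.23 TPM), summed to 1302 TPM in replicate 1 and 810 in replicate 2. The 16 head mesenchyme genes summed to 877 and 630 TPM and the 12 endothelial genes to 205 and 222 TPM. All values below are given for replicate 1 and then for replicate 2, and levels of different genes are compared in TPM. With 1 library on each side no test of spread is possible between the libraries, and intervals cover counting error only. They treat each count as independent, while PCR copies are not independent molecules, so they can be too narrow.

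The codons of the recognition helix are shown first, because they are what the members share most closely. In each member 30 bases, or 10 codons, of this stretch were found in the GENCODE M21 transcripts, and every transcript of a member that held it had the same letters. The stretches below are coding sequence in GRCm38, given 5′ to 3′ on the gene's own strand, and capitals mark the second codon, at which the members differ. Shown are abundant members and, for comparison, Foxb1, Foxe3 and Foxh1. Where an intron interrupts the codons, the coordinates run from the first to the last base with the intron included.
Foxp4 (chr17:47871328-47874640, minus strand): tggAAGaatgccgtgcgccacaacctcagc
Foxm1 (chr6:128369480-128370980, plus strand): tggAAGaactctattcgtcacaacctttct
Foxn3 (chr12:99388403-99388432, minus strand): tggAAGaactcagtgagacacaacttgtca
Foxj3 (chr4:119573795-119585773, plus strand): tggAAGaattctatacgacataatctgtca
Foxb1 (chr9:69760049-69760078, minus strand): tggCAGaacagcctgcgccacaatctctcc
Foxe3 (chr4:114925663-114925692, minus strand): tggCAGaacagcatccgccacaacctcacc
Foxh1 (chr15:76669250-76669279, minus strand): tggAAGgactccatccgccacaacctttcc

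The 41 stretches encoded 10 different peptides. The most frequent peptide was shared by 15 members, among them Foxj1, Foxc1, Foxc2, Foxd1, Foxi2, Foxk1, Foxk2 and Foxl2. Foxm1 shared its peptide with Foxj2, Foxj3 and the 4 FoxO genes, and Foxn3 with the other FoxN genes, Foxf1 and Foxf2. The FoxP genes other than Foxp3 formed a group of 3, as did Foxa1, Foxa2 and Foxa3. The second codon was one for lysine in 18 members, 12 of them at 1 TPM or more in both libraries, and one for glutamine in 22 members, 14 of them at that level. The highest mean level was 59.9 TPM among the lysine members and 11.9 TPM among the glutamine members. The 6 most abundant members all carried lysine there. The medians lay closer, at 4.01 TPM for the lysine members and 2.55 TPM for the glutamine members. An intron split these codons in 14 members, of classes FoxJ, FoxK, FoxM, FoxO and FoxP, and 11 of the 14 reached 1 TPM in both libraries. The codons lay in 1 exon in the 27 others, of which 16 reached that level.

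At least 1 TPM in both libraries was found for 27 of the 41 forkhead genes (65.9%), against 58.1% of protein-coding genes. At 10 TPM or more in both libraries there were 8 forkhead genes (19.5%), against 38.2% of protein-coding genes. The forkhead genes were thus mostly detected and mostly low, with 19 members between these limits. Their median level was 2.41 TPM (mean of the libraries), against 3.74 TPM for protein-coding genes. Among detected genes the medians were 5.99 TPM for forkhead genes and 20.7 TPM for all protein-coding genes. The family sum came to 361 and 335 TPM. Of that sum, 65.8% and 60.6% came from the 5 most abundant members, Foxp1, Foxm1, Foxn3, Foxp2 and Foxp4.

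**Figure D1:**
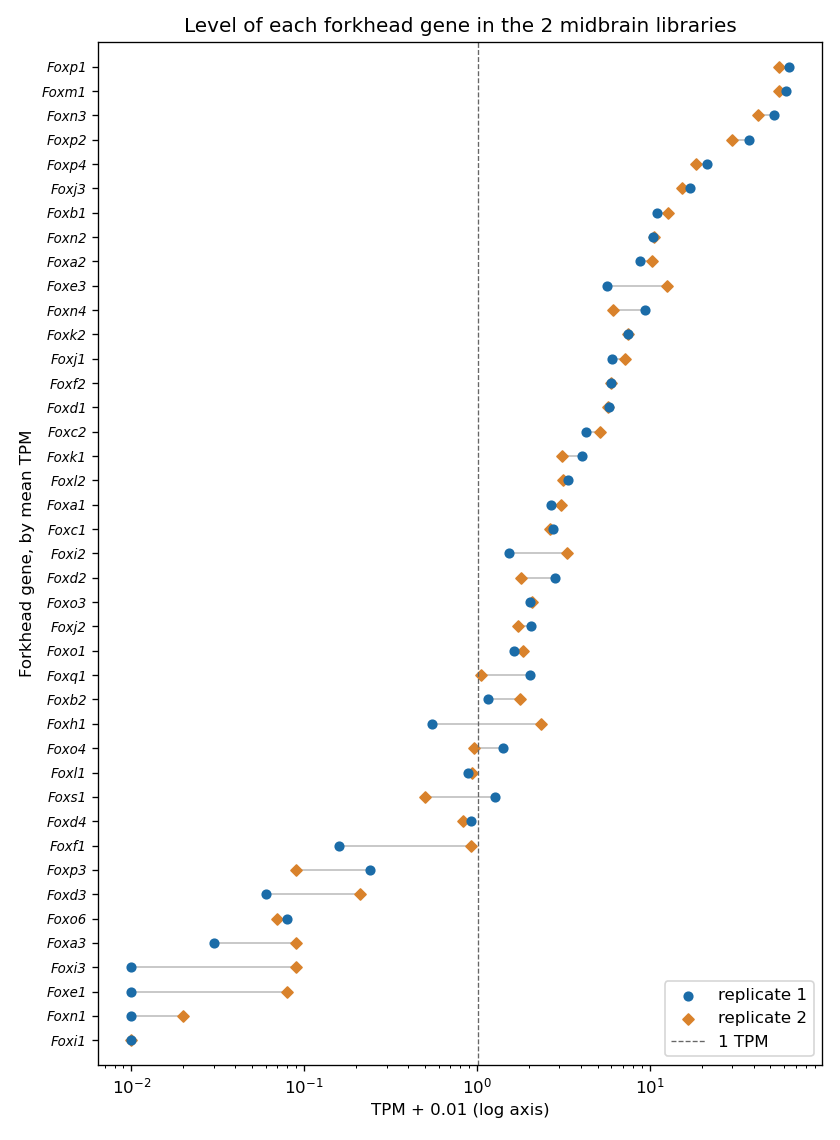
Level of each of the 41 forkhead genes in TPM with 0.01 added (horizontal log axis), with circles for replicate 1 and diamonds for replicate 2 and genes ordered by mean level. The 5 highest members lie above 18 TPM in both libraries, and Foxe3, Foxi2, Foxh1 and Foxf1 lie further right in replicate 2 and Foxs1 in replicate 1, each with a wide gap between the libraries.

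Ordered by mean level, neighbouring members often could not be separated. In 26 of the 40 neighbouring pairs the ranges of the 2 libraries overlapped, and among the 27 detected members this held for 13 of 26 pairs. Foxp1 and Foxm1 overlapped at the top. From Foxm1 down to Foxn2 no other pair of neighbours did. By class, the FoxP genes summed to 124 and 104 TPM, FoxN to 72.5 and 58.9 TPM and FoxM to 61.3 and 56.4 TPM. The FoxJ sum was 25.1 and 24.3 TPM. No other class passed 15 TPM in either library.

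**Figure D2:**
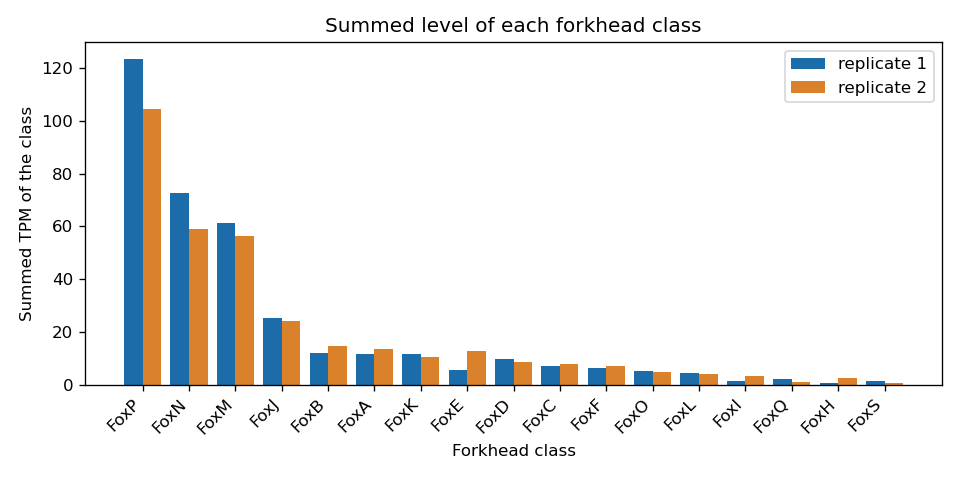
Summed TPM of the members of each forkhead class, with replicate 1 as the left bar and replicate 2 as the right bar of each pair. FoxP is highest with 124 TPM in replicate 1 and 104 TPM in replicate 2, and FoxE, FoxI and FoxH are the classes whose replicate 2 bar is more than 2-fold the replicate 1 bar.

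Foxp1, a repressor needed for motor neuron identity and in lymphocytes, was at 64.13 TPM in replicate 1 and 55.70 TPM in replicate 2. Foxp2, best known for its part in vocal learning and speech circuits, was at 37.63 and 30.09 TPM. Foxp4, which forms dimers with both, was at 21.56 and 18.55 TPM. The 3 genes kept their order in each library: Foxp1 was 1.70 and 1.85 times the level of Foxp2, and Foxp2 was 1.75 and 1.62 times that of Foxp4. Foxp3, the master regulator of regulatory T cells, was at 0.23 and 0.08 TPM. Its exons overlap several other genes, with 12.9% of their length shared with Ccdc22 on the opposite strand (30.85 and 29.14 TPM), and strandedness is not known, so that its few counts cannot be told apart from such neighbours. Of the 12 genes for corepressors and binding partners of FoxP proteins, 10 reached 1 TPM in both libraries. The corepressor Ctbp1 was the highest at 363.98 and 330.20 TPM, followed by the deacetylase gene Hdac2 at 274.59 and 263.96 TPM. Nfatc2, a partner in T cells, was the lowest at 0.51 and 0.46 TPM.

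Foxp1 and Foxp2 had the most annotated transcripts of the detected members, 32 and 19. Of the 27 detected members 12 had several annotated transcripts, and the leading transcript was the same in both libraries in all 12. It held at least 50% of the gene in both libraries in 8 of them. For Foxp1, Foxp1-225 (15 exons, 1731 coding bases) held 42.03% in replicate 1 and 43.08% in replicate 2. Foxp1-204, with 19 exons and 2115 coding bases, held 21.56% and 20.21%. Foxp2 was the most divided member, with no transcript above 25% in either library. Foxp2-207 held 22.52% and 24.33%, and Foxp2-201 held 22.25% and 16.82%; both have 2142 coding bases. The short Foxp2-203, with 2 exons and 249 coding bases, lacks the recognition helix codons and held 12.83% and 11.75%. Transcripts of any type whose sequence holds that stretch made up 63.3% and 58.3% of Foxp2. They made up 74.8% and 75.0% of Foxp1 and 76.9% and 81.1% of Foxp4. For Foxp2 they include Foxp2-206, annotated for breakdown by nonsense-mediated decay. It has only 168 coding bases and held 7.15% and 9.41%. For Foxp4, Foxp4-204 led with 45.52% and 52.56%, Foxp4-202 held 20.24% and 11.52%, and Foxp4-201 held 11.13% and 15.02%. A retained-intron transcript, Foxp4-206, held 14.15% and 15.88%. Isoform percents are estimates from shared reads and were deposited with no error of their own, so these differences between the libraries were not tested.

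**Figure D3:**
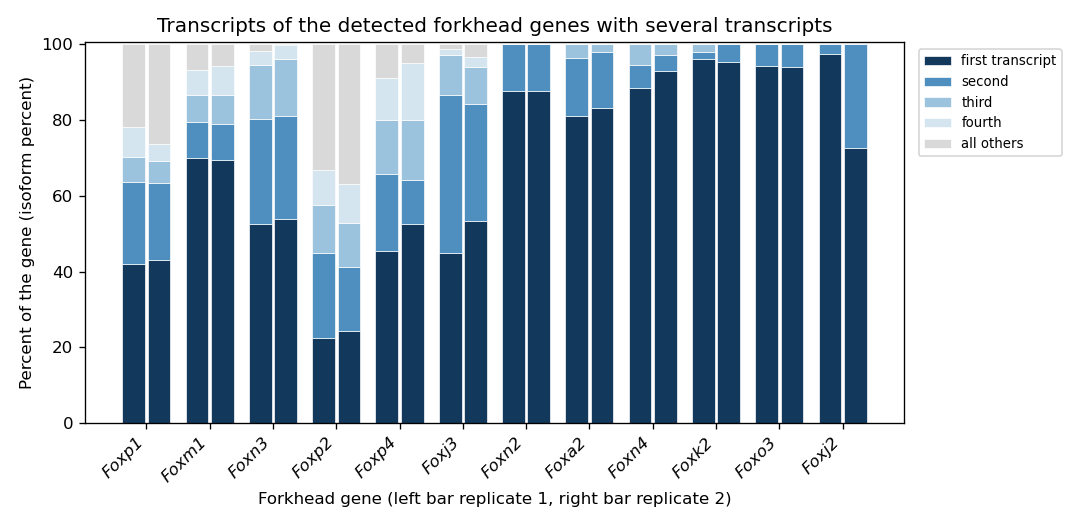
Percent of each gene assigned to its transcripts (vertical axis) for the 12 detected forkhead genes with several transcripts, with the left bar for replicate 1 and the right bar for replicate 2 and transcripts stacked in order of their mean percent. The leading transcript of Foxp2 stays below 25% in both libraries, while that of Foxk2 is above 95%, and Foxj2 has the widest gap in its leading transcript, with 97.4% in replicate 1 and 72.6% in replicate 2.

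Foxm1, which switches on genes of G2 and mitosis, was at 61.31 TPM in replicate 1 and 56.37 TPM in replicate 2, from 5877 and 6134 counts. It had the most counts of all forkhead genes, and its ratio of replicate 1 to replicate 2 was 1.04 (95% counting interval 1.00 to 1.07) after TMM scaling of the counts. Foxm1-201 was the leading transcript with 69.90% and 69.57% of the gene. All 21 genes of a list of mitotic FoxM1 targets and of the MuvB complex that FoxM1 binds were detected, with medians of 118 and 112 TPM. Cdk1, the mitotic kinase, was the highest at 370.43 and 446.48 TPM, with the cyclin gene Ccnb1 next at 381.40 and 407.78 TPM. Lin54, the DNA-binding MuvB subunit, was the lowest at 12.65 and 12.22 TPM. None of the 21 differed 2-fold between the libraries.

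Foxn3, a repressor named for its part in a cell cycle checkpoint, was at 52.72 TPM in replicate 1 and 42.16 TPM in replicate 2. Its close relative Foxn2 was at 10.38 and 10.62 TPM, so that Foxn3 was 5.08 and 3.97 times as high. Foxn3 was divided among Foxn3-201 (52.55% and 53.78%), the 3-exon Foxn3-205 (27.83% and 27.23%) and Foxn3-209 (14.09% and 15.19%). The first and the last of these have the same 1371 coding bases. Foxn3-205 has 559 coding bases and took only 6.64% and 6.32% of the gene's expected counts. It made up 14.67 and 11.48 TPM of the gene, so the Foxn3 level in TPM rests in part on this short transcript. Foxn2-201 held 87.60% and 87.75% of Foxn2, and the rest went to the retained-intron transcript Foxn2-202, with 12.40% and 12.25%.

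Foxn4, which specifies V2b interneurons in the spinal cord and horizontal and amacrine cells in the retina, was at 9.39 TPM in replicate 1 and 6.15 TPM in replicate 2. Its ratio of replicate 1 to replicate 2 was 1.39 (1.24 to 1.55 by counting error). Of 9 genes that act with or after Foxn4 in the V2 lineage, 6 reached 1 TPM in both libraries, and the list summed to 99.9 and 54.9 TPM. Gata3, a V2b gene that also marks midbrain GABAergic neurons, was at 23.95 and 8.92 TPM and was the one list gene past 2-fold (2.47-fold). Vsx1 was the lowest at 0.47 and 0.16 TPM. The 9 neuronal genes were higher in replicate 1 as well, with Dcx at 44.54 and 19.60 TPM and Mapt at 39.45 and 19.93 TPM. In scaled counts both were past 2-fold (2.12-fold and 2.08-fold), Mapt not as TPM, and the part of neuron content in the Foxn4 values was not tested. Foxn1, the thymus epithelium gene, had 0 counts in replicate 1 and 1 in replicate 2.

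Foxj3, a widely expressed member, was at 17.02 TPM in replicate 1 and 15.35 TPM in replicate 2, against 2.06 and 1.73 TPM for its relative Foxj2. It was read mainly as Foxj3-202 (44.93% and 53.25%) and Foxj3-201 (41.81% and 31.04%). Foxj1, the master gene of motile cilia, was at 6.01 and 7.17 TPM, with a ratio of 0.792 (0.699 to 0.896). Of 20 motile cilium genes measured, 9 reached 1 TPM in both libraries and the median was 0.425 and 0.710 TPM. Tppp3, a tubulin-binding protein gene, was the highest at 84.83 and 80.56 TPM, and Ccdc40, a ruler of the axoneme, was next at 27.61 and 23.79 TPM. Hydin, a central pair gene, was the lowest at 0.06 and 0.02 TPM. Foxj1 was thus detected beside a list of which 11 genes fell below 1 TPM in at least 1 library.

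Foxk2 and Foxk1, which bind the BAP1 deubiquitinase and the SIN3 corepressor, were both detected. Foxk2 had 7.47 TPM in replicate 1 and 7.48 TPM in replicate 2, and Foxk1 had 4.03 and 3.12 TPM. Foxk2 was the higher of the pair in each library, by 1.85 and 2.40 times. Foxk2-201 held 96.21% and 95.32% of Foxk2. All 13 partner genes were detected. Sin3b was the highest at 135.03 and 124.85 TPM and Ogt, the O-GlcNAc transferase, was next at 133.33 and 110.21 TPM. Dvl1, a gene of Wnt signalling, was the lowest at 4.55 and 4.23 TPM.

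Foxa2, which is needed for the floor plate and for dopaminergic neurons of the ventral midbrain, was at 8.82 TPM in replicate 1 and 10.29 TPM in replicate 2. Foxa1, which acts with it there, was at 2.68 and 3.07 TPM. The level of Foxa2 was 3.29 and 3.35 times that of Foxa1, a ratio that hardly moved between the pools. Both were somewhat lower in replicate 1, with ratios of 0.802 (0.712 to 0.901) and 0.824 (0.695 to 0.977). Foxa2-202, with 2 exons, held 80.94% and 83.17% of Foxa2, and Foxa2-201, with 3 exons, held 15.37% and 14.74%. All 12 floor plate and early dopaminergic genes were detected. Their sum was 365 and 366 TPM, much of it from Msx1, and their median was 18.4 and 17.2 TPM. Msx1 was the highest at 126.43 and 131.46 TPM, Spon1, which encodes a floor plate matrix protein, was next at 65.11 and 63.88 TPM, and Lmx1b was the lowest at 2.30 and 2.63 TPM. Lower members of the list included Shh (6.4 and 6.52 TPM), Corin (4.78 and 4.23 TPM) and Ferd3l (3.64 and 4.65 TPM). The part of floor plate cells in the Msx1 level, and so in the sum, was not tested. Foxa3, the liver and gut member, had 1 and 5 counts (0.02 and 0.08 TPM). Of 10 endoderm and liver genes only Apoa2 reached 1 TPM in both libraries (3.51 and 3.72 TPM), Apoa1 was next at 0.55 and 1.05 TPM, and genes with no counts included Alb, Gata4 and Cdx2.

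Foxb1, a gene of the embryonic neural tube that is needed for the mammillary body, was at 11.00 TPM in replicate 1 and 12.80 TPM in replicate 2. Foxb2, its single-exon relative, was at 1.15 and 1.77 TPM from 48 and 84 counts. Of the exon bases of Foxb1, 14.0% overlap B230323A14Rik on the opposite strand, which was at 1.18 and 1.02 TPM. Foxd1, known from the ventral diencephalon, the retina and kidney stroma, was at 5.78 and 5.76 TPM, the same in both libraries to the second digit. Of 12 forebrain genes 11 were detected, with a sum of 299 and 221 TPM. Tcf7l2, which is also a midbrain and thalamic gene, was the highest at 211.38 and 150.80 TPM, and Lhx2 was next at 24.54 and 19.90 TPM. Tbr1, a gene of cortical neurons, was the lowest at 0.22 and 0.20 TPM. Rax, an eye field and hypothalamus gene, was at 2.99 and 5.73 TPM and was the one forebrain gene past 2-fold, as scaled counts (2.02-fold) but not as TPM.

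The members known from mesenchyme and vessel walls were present at a few TPM each. Foxf2, which is needed for brain pericytes, was at 5.99 TPM in replicate 1 and 5.98 TPM in replicate 2. Foxc2 was at 4.29 and 5.18 TPM and Foxc1, needed for the meninges, at 2.75 and 2.63 TPM. Foxf2 and Foxc1 hardly differed between the pools, while the head mesenchyme sum was 1.39 times as high in replicate 1. Of 16 head mesenchyme genes 15 were detected, led by Col3a1 at 416.36 and 316.74 TPM and Col1a1 at 149.30 and 72.56 TPM. Dcn (11.74 and 5.16 TPM) and Osr1 (8.70 and 3.71 TPM) were past 2-fold higher in replicate 1, and Osr2 was the lowest at 0.42 and 0.31 TPM. Of 10 pericyte genes 7 were detected, with sums of 116 and 87.9 TPM. Acta2 was the highest at 32.10 and 18.19 TPM, Notch3 was next at 22.40 and 18.47 TPM, and Rgs5 was the lowest at 0.68 and 0.25 TPM. Kcnj8, a pericyte potassium channel gene, was at 4.89 and 1.91 TPM and past 2-fold. Foxs1, a gene of pericytes and peripheral sensory neurons, was at 1.26 and 0.49 TPM from 45 and 20 counts. All 12 endothelial genes were detected, from Egfl7 (58.00 and 72.93 TPM) and Esam (24.13 and 26.76 TPM) to Erg (1.44 and 1.18 TPM).

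Foxf1, a gene of lung and gut mesenchyme, was at 0.15 TPM in replicate 1 and 0.91 TPM in replicate 2, from 10 and 71 counts. Its ratio of replicate 1 to replicate 2 was 0.159 (0.070 to 0.297), the interval covering counting error only. With a mean of 0.53 TPM it was below the 1 TPM needed to be counted among members past 2-fold. Foxl1, another gene of gut mesenchyme, was at 0.88 and 0.93 TPM. On chromosome 8 Foxf1, Foxc2 and Foxl1 lie in a row, with gaps of 28.0 kb and 9.04 kb between the gene bodies. Within that cluster Foxc2 was 28.6 and 5.69 times as high as Foxf1 and 4.88 and 5.57 times as high as Foxl1. A similar cluster on chromosome 13 holds Foxq1, Foxf2 and Foxc1, with gaps of 64.8 kb and 175 kb. Foxf2 was 2.18 and 2.27 times as high as Foxc1 and 2.98 and 5.75 times as high as Foxq1. Foxq1, known from hair and stomach, was at 2.01 and 1.04 TPM from 150 and 89.5 expected counts. Of its exon bases 66.1% overlap A530084C06Rik on the opposite strand, which was at 0.27 and 0.06 TPM, and with the strand unknown reads in the overlap could belong to either.

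Foxd2, whose role is less studied, was at 2.81 TPM in replicate 1 and 1.78 TPM in replicate 2. Foxd3, needed for neural crest, was at 0.05 and 0.20 TPM from 3 and 15 counts. Of 9 neural crest genes 7 were detected, with sums of 114 and 106 TPM. Pax3 was the highest at 28.99 and 28.61 TPM and Tfap2b was next at 28.26 and 20.84 TPM. Sox10, a gene of early crest and glia, was at 0.46 and 2.15 TPM from 35 and 189 counts, past 2-fold higher in replicate 2. It reached the mean of 1 TPM needed for that call only through its level in replicate 2. Erbb3 was the lowest at 0.60 and 1.16 TPM. Foxd4 was at 0.91 and 0.82 TPM. Foxl2, known from the ovary and eyelid, was at 3.34 and 3.15 TPM from 112 and 121 counts. Of 8 ovary genes, only Inha reached 1 TPM in both libraries (2.28 and 1.47 TPM), with Nr5a1 next at 0.06 and 0.10 TPM and Fshr and Figla at 0 counts.

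Between the libraries, the 29 members that averaged 1 TPM or more were compared as TMM-scaled counts. Of them 3 were past 2-fold (10.3%), against 3.22% of the 14768 genes compared. One of these, Foxh1, entered only through its level in replicate 2, and among the 27 members at 1 TPM or more in both libraries 2 were past 2-fold, against 1.69% of genes at that level. All 3 were higher in replicate 2, where 1.18% of all genes passed 2-fold, and 0 were higher in replicate 1, where 2.04% did. The median size of the log2 ratio was 0.28 for the forkhead genes and 0.16 for all genes compared. Within 1.25-fold of each other were the libraries' values for 19 of the 29. No such share was taken over all genes, so this count describes the members only. The members are lower in level than most genes, and a count of 3 is small, so the share is a description of these 2 libraries.

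**Figure D4:**
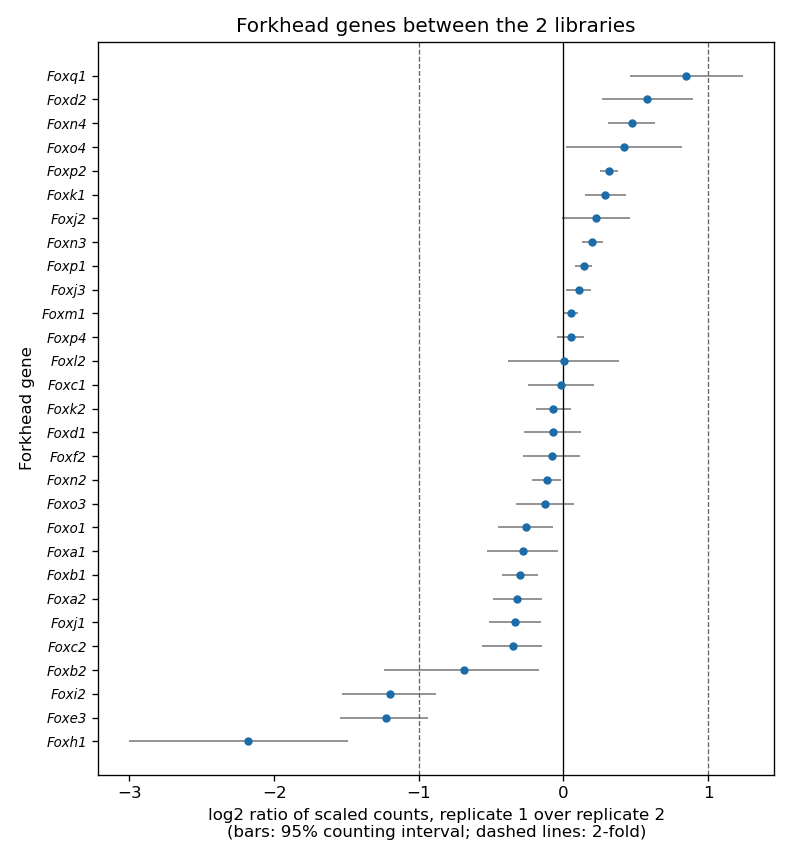
The log2 ratio of scaled counts, replicate 1 over replicate 2, for the 29 forkhead genes averaging 1 TPM or more, with bars for the 95% counting interval and dashed lines at 2-fold. Foxh1, Foxe3 and Foxi2 lie beyond the 2-fold line on the replicate 2 side with log2 ratios of -2.18, -1.23 and -1.20, and no member lies beyond the line on the replicate 1 side.

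Foxe3, a gene of the lens epithelium, was at 5.63 TPM in replicate 1 and 12.52 TPM in replicate 2. The counts were 127 and 323, and the ratio of replicate 1 to replicate 2 was 0.426 (0.344 to 0.524). Its annotated model is short, so that 3 counts are worth 0.133 and 0.116 TPM, the most of any member. Foxi2, a gene of cranial ectoderm and placodes, was at 1.52 and 3.30 TPM from 111 and 276 counts, a ratio of 0.436 (0.346 to 0.544). The 2 genes differed between the pools by nearly the same factor. Foxd2, which lies 16.3 kb from Foxe3 on chromosome 4, was at 2.81 and 1.78 TPM, a ratio of 1.49 (1.21 to 1.86) in the other direction. Foxe3 was therefore 2.00 times the level of Foxd2 in replicate 1 and 7.03 times in replicate 2.

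Lens and ectoderm genes were set beside these values. Of 13 lens genes, chosen after the forkhead values were known, 5 reached 1 TPM in both libraries, with sums of 19.1 TPM in replicate 1 and 13.8 TPM in replicate 2. Prox1, which is also a neuronal gene, was the highest at 8.63 and 5.46 TPM, and Cryab was next at 3.67 and 2.17 TPM. Crybb2 and Lim2 had no counts, and the lens crystallin gene Cryaa was at 0.03 and 0.00 TPM. Most of the sum came from Prox1 and Cryab, while the list had medians of 0.170 and 0.340 TPM. Of 10 surface ectoderm genes 8 were detected, with sums of 56.6 and 73.1 TPM. Krt8 was the highest at 17.03 and 20.24 TPM, Krt18 was next at 9.92 and 18.37 TPM, and Krt5 was the lowest at 0.10 and 0.19 TPM. Grhl3 (2.14 and 1.08 TPM) and Cdh1 (7.36 and 6.94 TPM) were lower in replicate 2, and the other genes of the list were higher there. The part of ectoderm in the Foxe3 and Foxi2 values was not tested.

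The promoters of Foxe3 and Foxi2 are printed because these genes were past 2-fold in the same library, with that of Foxd2 as the neighbour of Foxe3 that was not. Each runs from 250 bases before to 50 bases after the start of the gene in RefSeq (GRCm38.p6), 5′ to 3′ on the gene's strand, and capitals mark CpG dinucleotides.
Foxe3 (chr4:114926018-114926317, minus strand): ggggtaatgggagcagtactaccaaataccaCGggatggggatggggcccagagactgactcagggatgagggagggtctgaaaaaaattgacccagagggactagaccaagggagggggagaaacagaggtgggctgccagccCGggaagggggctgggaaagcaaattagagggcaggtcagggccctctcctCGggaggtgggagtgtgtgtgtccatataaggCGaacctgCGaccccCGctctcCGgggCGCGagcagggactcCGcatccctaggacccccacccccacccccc
Foxi2 (chr7:135410117-135410416, plus strand): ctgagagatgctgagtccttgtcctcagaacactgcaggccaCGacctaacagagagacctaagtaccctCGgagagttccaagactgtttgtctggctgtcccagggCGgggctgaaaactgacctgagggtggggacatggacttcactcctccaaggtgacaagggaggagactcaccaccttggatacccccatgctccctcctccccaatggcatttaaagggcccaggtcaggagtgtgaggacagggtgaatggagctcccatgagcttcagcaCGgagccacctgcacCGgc
Foxd2 (chr4:114908849-114909148, minus strand): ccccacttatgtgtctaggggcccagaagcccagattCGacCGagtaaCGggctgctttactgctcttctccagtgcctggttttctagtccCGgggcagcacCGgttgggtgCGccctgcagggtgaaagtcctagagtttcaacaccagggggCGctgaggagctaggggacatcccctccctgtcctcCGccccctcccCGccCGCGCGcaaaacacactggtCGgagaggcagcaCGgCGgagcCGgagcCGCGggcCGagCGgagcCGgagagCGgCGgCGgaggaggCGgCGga

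The Foxe3 promoter held 10 CpG dinucleotides, the Foxi2 promoter 5 and the Foxd2 promoter 26. Promoter sequences were at hand for 26 of the 41 members, with 31 start sites. Their median was 22 CpG dinucleotides, against 7 for the 32851 promoters of the RefSeq table. It was 26 over the 23 promoters of detected members and 10 over the 8 promoters of the other members. Foxe3 and Foxi2 thus had fewer than most detected members. Low counts were also found for Foxb2 (10), Foxn3 (6) and a start site of Foxp1 (5), none of them past 2-fold. For Foxh1, the other member past 2-fold, no promoter sequence was at hand. Both strands were searched for 5 motifs, each counted by itself. GGGCGG, the GC box, which itself holds a CpG, was in 74.2% of the forkhead promoters and 35.7% of all promoters. CCAAT was in 45.2% and 37.4%, and TATAAA was in 9.68% and 13.6%. CACGTG was in 3.23% and 7.15%. TGTTTAC, a letter match to the forkhead site itself, was in 3.23% of the forkhead promoters, which is that of Foxa1 alone, and in 3.65% of all promoters. These matches describe letters, not bound sites.

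**Figure D5:**
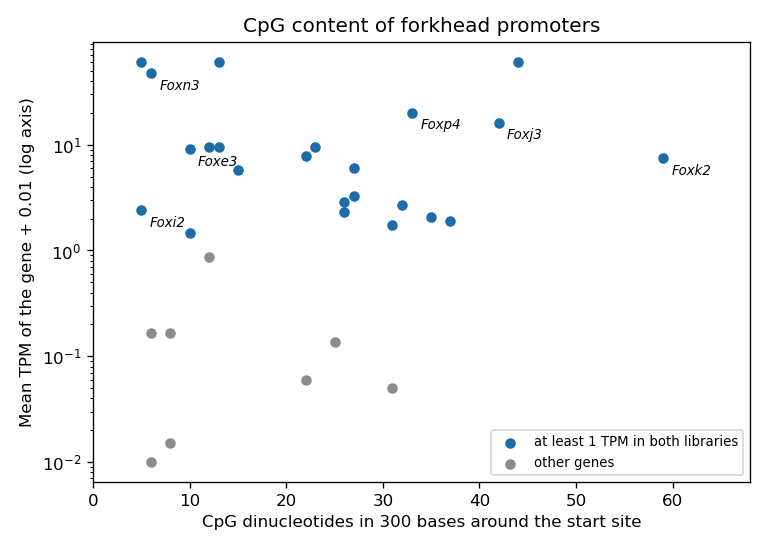
Number of CpG dinucleotides in the 300 bases around each RefSeq start site (horizontal axis) against the mean TPM of the gene with 0.01 added (vertical log axis), for 31 promoters of 26 forkhead genes, coloured by whether the gene reached 1 TPM in both libraries. Foxi2 (5), Foxn3 (6), Foxe3 (10) and Foxb2 (10) are detected members with few CpG dinucleotides, as is a start site of Foxp1 (5). Foxk2 has the most with 59.

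Foxh1, the SMAD partner in Nodal signalling, was at 0.54 TPM in replicate 1 and 2.34 TPM in replicate 2. It had 19 and 95 counts, a ratio of 0.221 (0.125 to 0.357), and was the lowest of the members past 2-fold. Of 14 genes of Nodal and SMAD signalling 8 reached 1 TPM in both libraries. Drap1, a cofactor, was the highest at 193.47 and 188.58 TPM, and Acvr2b was next at 46.95 and 44.31 TPM. The ligand Nodal was at 0.20 and 0.22 TPM, and the Nodal antagonist Lefty2 had no counts. None of the 8 was past 2-fold.

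The FoxO genes, effectors of insulin and growth factor signalling, were low. Foxo3 was at 2.01 TPM in replicate 1 and 2.07 TPM in replicate 2, and Foxo1 at 1.62 and 1.83 TPM. Foxo4 was at 1.41 and 0.95 TPM, and Foxo6, a gene of the mature brain, at 0.07 and 0.06 TPM from 5 counts in each library. The summed FoxO level was 5.11 and 4.91 TPM, lower than that of each of the 5 most abundant single members. All 22 genes acting on FoxO proteins were detected. The 14-3-3 genes Ywhae (1184 and 1190 TPM) and Ywhaq (1153 and 1138 TPM) were the highest, and Pik3cb, a kinase subunit, was the lowest at 1.25 and 1.40 TPM. Of 24 genes known as FoxO targets 15 were detected, led by Map1lc3b (206.20 and 173.19 TPM) and Cat (97.09 and 87.13 TPM), genes of autophagy and peroxide breakdown. The gluconeogenic genes G6pc and Pck1 had no counts.

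Foxi1, the ionocyte gene, had 0 counts in both libraries, which allows up to 0.045 TPM in replicate 1 and 0.040 TPM in replicate 2 at 3 counts. Foxi3, a placode gene, had 0 and 3 counts, and Foxe1, the thyroid gene, had 0 and 6. None of 6 ionocyte genes reached 1 TPM, with Ascl3 the highest at 0.17 and 0.10 TPM, Atp6v0a4 next at 0.01 and 0.07 TPM, and Atp6v1b1 and Bsnd among those at 0 counts. Of 12 T cell and thymus genes, 3 reached 1 TPM in both libraries. These were Ccl25 (12.96 and 12.51 TPM), Ikzf2 (5.12 and 5.51 TPM) and Lck (4.01 and 6.17 TPM), while Cd3e, Cd3d, Cd8a and Ctla4 had 0 counts. In all, 11 members were below 1 TPM in both libraries, Foxo4 and Foxs1 reached it only in replicate 1, and Foxh1 reached it only in replicate 2.

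The members were also grouped by exon number. The 14 members with a transcript of 4 or more exons had a median of 9.14 TPM, and 12 of them were detected. The 13 single-exon members had a median of 1.53 TPM and a highest mean of 9.08 TPM, that of Foxe3, and 8 were detected. The 14 members with 2 or 3 exons at most had a median of 1.58 TPM, and 7 were detected. The 6 most abundant members each have a transcript of at least 6 exons. These are counts over a family whose members share ancestry, and no test was made of them.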

How the data were processed

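RNA of 2 libraries from midbrain of mouse embryos at embryonic day 10.5 was analysed, both of 1 group. Per the file headers, each has a gene and a transcript table on mm10 with GENCODE M4. The sources used here name neither aligner nor quantifier and give no strandedness, and the labels' protocols link a kit that primes on poly(A) tails while calling the assay total RNA-seq. Expected counts, as deposited, are estimated by dividing ambiguous reads among transcripts. The authors' TPM values are those counts per effective length, set to the same total in every library. The deposited FPKM values and posterior mean TPM served as alternatives. Deposited interval bounds of TPM, a signal in TPM units, were not used for calls. The deposited isoform percent is a transcript's share of its gene.

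Names and positions came from GENCODE M21 (GRCm38), with 42462 of 43346 identifiers matched, and promoters from RefSeq (GRCm38.p6). Unmatched identifiers stayed in library sizes, with 0.252% and 0.260% of counts, and spike-in and tRNA rows were left out. After rounding, expected counts were scaled with TMM factors (edgeR 4.0.16). Ratios had 0.5 added to each count and a 95% counting interval (Clopper-Pearson). To be called past 2-fold a gene needed a mean of 1 TPM. Detection meant 1 TPM in both libraries. Simulated counts were used to check the ratios. Past 2-fold is a size, not a test. Floors are 3 counts.

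The members and the 22 lists were chosen with earlier results of these data known. Of 287 list genes 3, Dnai1, Dnai2 and Gdf1, had no match. Named genes were all members, of each list the 2 highest and the lowest by mean TPM (several at 0 counts, where tied) and up to 3 past 2-fold, and transcripts of detected members with at least 2 transcripts of 10% or more in both libraries. Some genes that this rule took, and some sequences, are left out of the text, while counts and sums include them. Other genes and transcripts were named after their values were seen. Alternatives were other minimums, pseudocounts and folds, DESeq2 1.42.0 size factors, FPKM and each replicate left out. Software was R 4.3.3 and Python 3.11.15 with pandas 2.3.3, numpy 2.4.6 and scipy 1.17.1.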

Additional observations from a re-analysis of the deposited data

How the results depend on the processing

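The count of detected forkhead genes, 27 at 1 TPM, stayed between 21 and 31 under other minimums, FPKM and posterior mean TPM, and was 28 and 29 with one replicate left out. The median log2(TPM + 1) of the family was 1.77, against 2.24 for protein-coding genes. It was 1.33 with a pseudocount of 0.1, 2.19 over members of at least 0.5 TPM, 1.34 in FPKM and 1.75 in posterior mean TPM, and 1.86 to 1.88 with one replicate left out, below that of protein-coding genes in each case. The count of members past 2-fold, 3, was the same with DESeq2 size factors, TPM or FPKM ratios and 5 counts added. With 1 TPM required in both libraries, a setting chosen after seeing the data, it was 2 of 27 (Foxe3 and Foxi2). It was 11 of 40 with no filter on level (against 20.9% of all genes), 1 of 15 above a mean of 5 TPM (Foxe3, against 1.04%) and 5 of 29 at 1.5-fold (against 9.64%). The 5 most abundant members held 60.6% to 65.8% of the family with one replicate left out. The other counts, of genes detected in the 9 lists of partners and targets (116, or 120 at 0.5 TPM), those past 2-fold in these lists (1) and divided members led by a transcript of at least 50% (8, or 8 to 10 under the alternatives), stayed within 1.5 times. No paired analysis was possible because the 2 libraries are of 1 group. Members under about 100 counts are limited by depth, and no spread between libraries can be estimated for a ratio.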
